A study of Saccharomyces cerevisiae with 39 samples.

Results

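The TRAMP complex and its partners hand nuclear RNAs to the RNA exosome, and 7 yeast genes that encode them are described here. The genes were chosen by name and not by a rule on measured values, though with earlier results of these data known. The 7 genes are MTR4 (YJL050W), PAP2 (YOL115W, also called TRF4), TRF5 (YNL299W), AIR1 (YIL079C), AIR2 (YDL175C), LRP1 (YHR081W, also called RRP47) and MPP6 (YNR024W). They are 7 of the 8898 features in the count files, and all 7 passed the filter on low counts in every comparison. RNA was sequenced from 39 libraries of haploid Saccharomyces cerevisiae, in 13 groups of 3, grown in triplicate for 5 h at 37 °C in 10 mL of minimal medium without leucine. Per the series title, the missense alleles model disease-linked changes in exosome genes.

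Every strain carried ura3Δ0, leu2Δ0 and his3Δ1, lacked the chromosomal copy of its exosome gene, and held the low-copy plasmid pRS315 with the LEU2 marker and CEN6. The alleles were therefore expressed from a plasmid in mutant and control strains alike. The rrp6Δ group carried the plasmid without an exosome gene and was set against RRP6 on the plasmid, in MATa met15Δ0 cells. The rrp4-G226D group was set against RRP4 in MATα lys2Δ0 cells, and rrp40-W195R and rrp40-S87A were set against RRP40 in MATa cells. The rrp45-I15P group was set against RRP45 in MATα cells, and rrp46-L191H, rrp46-L127T and rrp46-Q86I were set against RRP46 in MATα lys2Δ0 cells. Mating type and markers thus match within a family and differ between families, except that the rrp4 and rrp46 families share both. The rrp40 alleles share the RRP40 libraries, and the rrp46 alleles share the RRP46 libraries.

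TRAMP is built from a helicase, Mtr4, a noncanonical poly(A) polymerase, Trf4 or Trf5, and a zinc-knuckle RNA-binding protein, Air1 or Air2. It adds short A tails to aberrant or excess nuclear RNAs and unwinds them, and the exosome then trims or destroys them from the 3′ end. Lrp1 (Rrp47) binds the nuclear nuclease Rrp6 and stabilises it, and Mpp6 joins Mtr4 to the nuclear exosome core.

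The promoters of the paralog pairs are shown because the members of each pair behaved differently across the strains. Each sequence runs 5′ to 3′ on the gene's own strand, from 250 bases before the coding start to 50 bases after it, in the RefSeq R64 genome. Capitals mark the PAC motif, GATGAG or its reverse complement CTCATC, a motif known from promoters of yeast ribosome biogenesis genes.
TRF5, chrXIV:66267-66566, plus strand: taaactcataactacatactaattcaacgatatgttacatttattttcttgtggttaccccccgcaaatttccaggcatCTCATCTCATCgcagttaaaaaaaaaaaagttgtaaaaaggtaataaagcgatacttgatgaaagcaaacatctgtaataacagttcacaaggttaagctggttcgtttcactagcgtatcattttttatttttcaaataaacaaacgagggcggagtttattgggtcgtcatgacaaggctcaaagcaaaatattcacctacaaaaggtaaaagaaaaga
PAP2, chrXV:101225-101524, plus strand: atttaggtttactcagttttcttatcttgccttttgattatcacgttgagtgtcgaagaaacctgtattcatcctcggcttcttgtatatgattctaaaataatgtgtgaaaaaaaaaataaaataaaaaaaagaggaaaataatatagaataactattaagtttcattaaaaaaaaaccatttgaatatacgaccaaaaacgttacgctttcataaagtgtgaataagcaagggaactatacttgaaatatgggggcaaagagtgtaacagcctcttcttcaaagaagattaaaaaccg
AIR1, chrIX:211956-212255, minus strand: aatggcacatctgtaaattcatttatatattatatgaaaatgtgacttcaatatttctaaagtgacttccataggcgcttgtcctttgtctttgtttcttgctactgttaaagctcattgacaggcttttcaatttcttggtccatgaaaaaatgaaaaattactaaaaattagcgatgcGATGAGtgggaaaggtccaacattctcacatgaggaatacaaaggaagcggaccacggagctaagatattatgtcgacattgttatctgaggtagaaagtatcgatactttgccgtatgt
AIR2, chrIV:145469-145768, minus strand: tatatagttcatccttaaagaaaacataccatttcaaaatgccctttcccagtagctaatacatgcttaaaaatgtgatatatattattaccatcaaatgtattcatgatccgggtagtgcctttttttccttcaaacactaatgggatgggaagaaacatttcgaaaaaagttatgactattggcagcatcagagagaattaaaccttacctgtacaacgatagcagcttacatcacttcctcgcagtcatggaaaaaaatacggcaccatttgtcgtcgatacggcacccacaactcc
In TRF5 the motif was found at 171 and 166 bases before the coding start, in matches that overlap by 1 base, and in AIR1 at 70 bases before it. PAP2 and AIR2 held no match in this window. MTR4, LRP1 and MPP6 held a match at 139, 132 and 55 bases before the start, so that 5 of the 7 genes had the motif, against 20.3% of 6020 promoters of this length and 53 of 57 genes on a ribosome biogenesis list. The RRPE motif AAAATTTT was found in 1 of the 7 promoters, that of MPP6 at 98 bases before the start, against 9.003% of all promoters and 47 of the 57 ribosome biogenesis genes. The stress motif AGGGG (reverse complement CCCCT) was found in 0 of the 7, against 21.6% of all promoters. Both strands were searched, and a match describes letters in this window only.

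The smallest library held 17244127 counts, the median library 35937895 and the largest 53642418, and in a library MTR4 had up to 25366 counts and MPP6 up to 963. Levels are given as CPM, counts scaled to a common library size after all 39 libraries were adjusted together by TMM factors, and changes as log2 fold changes of mutant over control. A gene is called when its edgeR quasi-likelihood p, adjusted by the Benjamini-Hochberg method over all features tested, is under 0.05. RRP6 stood at 3.38 CPM in rrp6Δ cells and 634.5 CPM in RRP6 cells, and STE2, STE3, LYS2, MET17 and URA3 followed the labelled genotypes in all 13 groups. TMM scaling takes most features as unchanged, while scaling by library totals takes the total as unchanged. Using library totals raised the fold changes by a median of 0.60 (log2) for rrp6Δ, 0.33 for rrp4-G226D, 0.33 for rrp40-W195R and 0.17 for rrp46-L191H, and moved them by less than 0.1 in the other comparisons with a control. With TMM scaling 50.3% of the called features were higher in rrp46-L191H, 49.5% in rrp40-W195R, 50.1% in rrp4-G226D and 51.1% in rrp6Δ, and with library totals 73.8%, 89.0%, 84.7% and 83.7% in the same strains. In these bulk cultures, fewer cells in a given state and less RNA per cell cannot be told apart.

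The effect of exosome mutation on these genes went both ways. In rrp6Δ against RRP6, TRF5 and AIR2 rose while MTR4, PAP2, AIR1, LRP1 and MPP6 fell, so that all 7 were called, where 83.5% of all features were called, 42.6% higher and 40.9% lower. Under library totals the split was 6 higher and 1 lower, since PAP2, AIR1, LRP1 and MPP6 changed sign. In rrp4-G226D against RRP4, AIR2 rose and MTR4, PAP2, AIR1 and LRP1 fell, 5 called genes beside 71.9% of all features, 36.1% higher and 35.9% lower. Under library totals 4 of the 7 were higher and 0 lower, with a change of sign in PAP2, AIR1, LRP1 and MPP6. Leaving out RRP4 replicate 3 left 2 called genes in this comparison.

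In 4 of the other alleles every called gene rose. In rrp40-W195R 6 of the 7 genes rose, all except MTR4, where 52.5% of all features were called and 26% were called higher. In rrp46-L191H all 7 rose, where 62.4% of all features were called and 31.4% were called higher. MTR4, PAP2 and TRF5 rose in rrp40-S87A, 3 genes beside 7.69% of features called higher and 15.5% called in all, and 1 gene was left without RRP40 replicate 2 or without rrp40-S87A replicate 3. TRF5 alone rose in rrp46-L127T, where 2.63% of features were called higher and 5.24% in all, and 0 genes were left without RRP46 replicate 1 or 2 or without rrp46-L127T replicate 2 or 3. DESeq2 and a joint fit of all 39 libraries called 3 genes there, with MTR4 and AIR1 added.

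None of the 7 was called by edgeR or DESeq2 in rrp45-I15P, where 0.0266% of all features were called, and 1 gene, LRP1, had an unadjusted p under 0.05. None was called by either tool in rrp46-Q86I, where 0.515% of all features were called, and 0 had an unadjusted p under 0.05. The 7 genes had a median log2 fold change of -0.32 for rrp6Δ and -0.16 for rrp4-G226D, which library totals turned to 0.28 and 0.17. The median was 0.41 for rrp46-L191H, 0.39 for rrp40-W195R, 0.19 for rrp40-S87A, 0.11 for rrp46-L127T, 0.05 for rrp46-Q86I and -0.08 for rrp45-I15P. Over all features tested it lay between -0.0054 and 0.03.

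**Figure D1:**
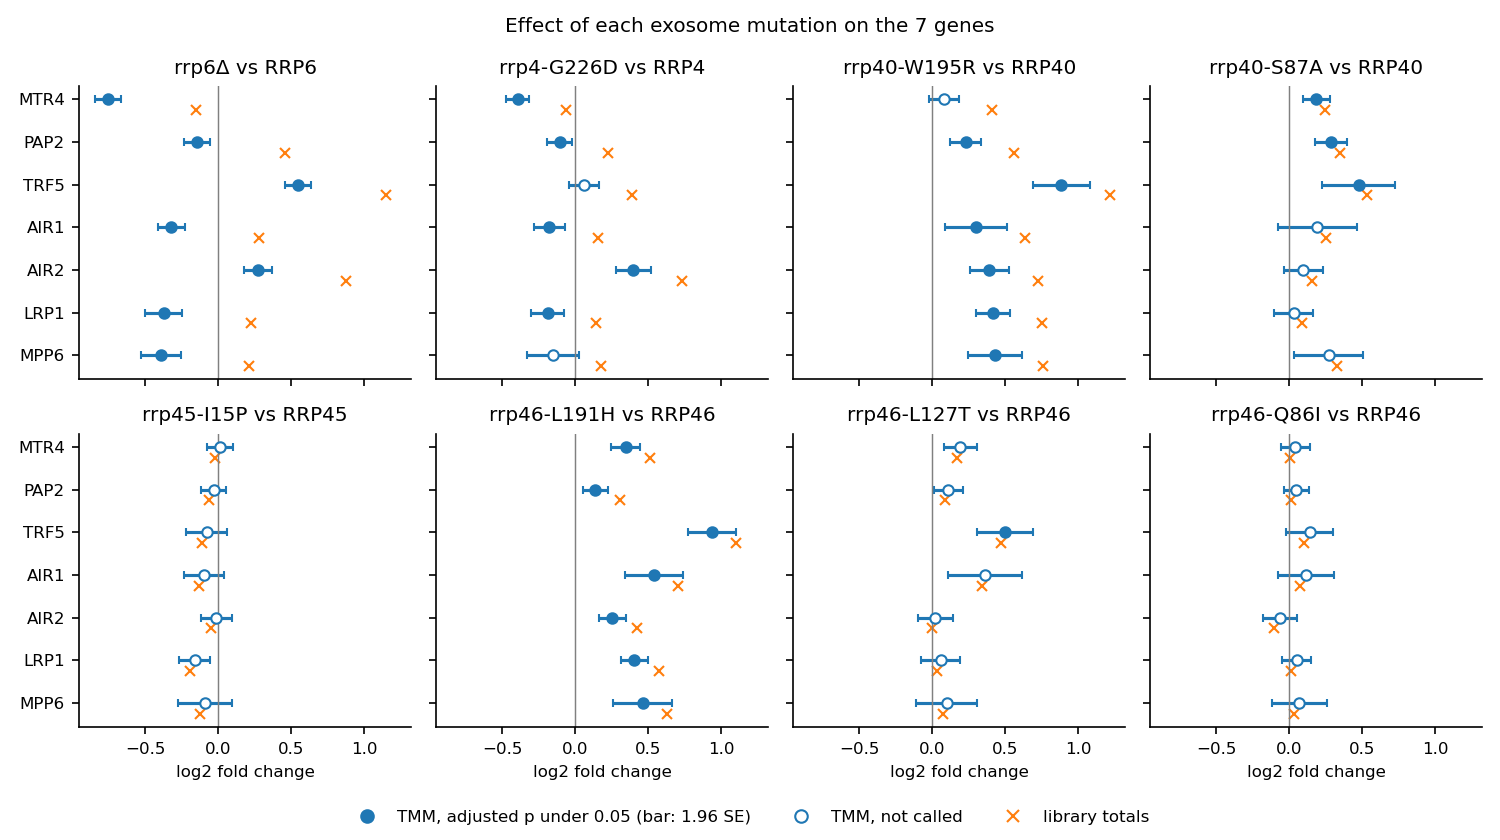
Log2 fold change (horizontal axis) of the 7 genes in each of the 8 mutant-control comparisons. Filled circles are called with TMM scaling, open circles are not, and crosses are the same fold changes scaled by library totals. Bars are the standard error times the normal multiplier for 95%, which takes no account of the few libraries, so they are too narrow. For PAP2 in rrp46-L127T the bar runs from 0.0082 to 0.21, although the unadjusted edgeR p is 0.0569. All 7 filled circles lie right of 0 in rrp46-L191H, while 5 lie left of 0 in rrp6Δ, where 4 of their crosses lie right of 0.

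MTR4, the helicase that both TRAMP forms share, was the gene with the largest fall with TMM scaling. Its level was 297, 297 and 286 CPM in rrp6Δ libraries, against 521, 491 and 487 CPM in RRP6 libraries. Every rrp6Δ library lay below every RRP6 library, and MTR4 fell by 0.76 on the log2 scale (SE 0.046, edgeR adjusted p = 2.00e-10), a change of -40.9%. With library totals it fell by 0.16 and kept its call (edgeR adjusted p = 0.00278).

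In rrp4-G226D libraries MTR4 was at 384, 411 and 386 CPM, against 521, 525 and 520.5 CPM in RRP4 libraries. The groups were apart, and MTR4 fell by 0.40 (log2, SE 0.040, edgeR adjusted p = 2.61e-08). With library totals the value was -0.07 and the call was lost (edgeR adjusted p = 0.122).

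With TMM scaling, where MTR4 rose, it rose by less than it fell in rrp6Δ and rrp4-G226D. With library totals MTR4 rose by 0.51 in rrp46-L191H and 0.24 in rrp40-S87A, more than it fell. It was at 395, 385 and 401 CPM in rrp46-L191H libraries, against 286, 314 and 328 CPM in RRP46 libraries, and rose by 0.34 (log2, SE 0.050, edgeR adjusted p = 5.41e-05). In rrp40-S87A libraries it was at 407, 408 and 413 CPM, against 373, 350.1 and 364 CPM in RRP40 libraries, and rose by 0.19 (log2, SE 0.046, edgeR adjusted p = 0.0159). All rrp40-S87A libraries lay above all RRP40 libraries, but the call was lost without RRP40 replicate 2 (adjusted p = 0.104) and without rrp40-S87A replicate 3 (adjusted p = 0.0689), both from edgeR. In rrp40-W195R, with 388.5 ± 12.4 CPM against 362.5 ± 11.7 CPM in RRP40 (SD, n = 3 each), MTR4 was not called (log2 fold change 0.08, SE 0.052), and library totals gave 0.41 with a call.

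TRF5, the poly(A) polymerase gene with the lower level per kilobase of the pair in 12 of the 13 groups, had the largest rise. It was called higher in 5 of the 8 comparisons and lower in 0, and kept its sign with library totals in those 5. Its level was 97.8, 98.6 and 89.0 CPM in rrp6Δ libraries, against 66.6, 65.0 and 65.1 CPM in RRP6 libraries. The groups were apart, and TRF5 rose by 0.55 (log2, SE 0.046, edgeR adjusted p = 1.21e-08), or 1.15 with library totals.

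With TMM scaling the steepest rises of TRF5 came in the rrp46-L191H and rrp40-W195R strains. It was at 33.4, 28.6 and 32.6 CPM in rrp46-L191H libraries, against 14.3, 17.0 and 17.9 CPM in RRP46 libraries, and rose 1.91-fold (log2 fold change 0.93, SE 0.084, edgeR adjusted p = 1.01e-06). In rrp40-W195R libraries it was at 40.3, 34.1 and 38.0 CPM, against 22.7, 19.8 and 17.4 CPM in RRP40 libraries, and rose 1.84-fold (log2 fold change 0.88, SE 0.0995, edgeR adjusted p = 4.06e-05). Neither pair of groups overlapped.

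TRF5 rose less in 2 further alleles. In rrp40-S87A libraries it was at 23.3, 28.2 and 31.5 CPM, against 22.7, 19.8 and 17.4 CPM in RRP40 libraries, a log2 fold change of 0.48 (SE 0.127, edgeR adjusted p = 0.0359). The groups were apart, yet the call was lost without RRP40 replicate 2 (adjusted p = 0.131) or 3 (0.0566) and without rrp40-S87A replicate 2 (0.127) or 3 (0.0866), all from edgeR, and with the replicate number as a block (edgeR adjusted p = 0.127). In rrp46-L127T libraries TRF5 was at 21.4, 22.2 and 26.1 CPM, against 14.3, 17.0 and 17.9 CPM in RRP46 libraries, a log2 fold change of 0.50 (SE 0.098, edgeR adjusted p = 0.0198). That call was lost without RRP46 replicate 1 (adjusted p = 0.0542) or 2 (0.0677) and without rrp46-L127T replicate 2 (0.0584) or 3 (0.0663), all from edgeR. In rrp4-G226D TRF5 averaged 58.6 ± 3.39 CPM, against 56.7 ± 2.70 CPM in RRP4 (SD, n = 3 each), with no call (log2 fold change 0.06, SE 0.052), although library totals gave 0.39 with a call.

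PAP2, the Trf4 polymerase, had the narrowest span of levels. Over the 13 groups its mean level ran from 53.3 CPM in RRP40 to 72.6 CPM in RRP4. In rrp40-S87A it was at 63.1, 62.7 and 68.2 CPM, against 54.7, 52.8 and 52.6 CPM in RRP40, and rose by 0.29 (log2, SE 0.056, edgeR adjusted p = 0.00413). In rrp40-W195R it was at 65.8, 61.9 and 62.8 CPM and rose by 0.23 (log2, SE 0.054, edgeR adjusted p = 0.00437) against the same RRP40 libraries.

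The other calls of PAP2 were small. It rose by 0.14 (log2) in rrp46-L191H, at 64.2, 64.3 and 65.6 CPM, against 56.0, 59.3 and 60.7 CPM in RRP46 (edgeR adjusted p = 0.0171), and lost the call without RRP46 replicate 1 (adjusted p = 0.0620) or rrp46-L191H replicate 3 (0.0557). It fell by 0.15 in rrp6Δ, at 66.5, 65.0 and 61.2 CPM, against 75.3, 68.5 and 70.6 CPM in RRP6 (edgeR adjusted p = 0.00868), a call lost without RRP6 replicate 1 (adjusted p = 0.0949), and library totals gave 0.46. In rrp4-G226D it fell by 0.11 (edgeR adjusted p = 0.0294), library totals gave 0.22, and the call was lost without RRP4 replicate 3 (adjusted p = 0.159), without rrp4-G226D replicate 1 (0.0554) or 3 (0.0777) and with the replicate number as a block (adjusted p = 0.0525).

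AIR1 and AIR2, the zinc-knuckle proteins, moved apart in rrp6Δ and rrp4-G226D. AIR2 was at 42.7, 42.8 and 43.2 CPM in rrp6Δ libraries, against 34.5, 37.6 and 35.5 CPM in RRP6 libraries, and rose by 0.27 (log2, SE 0.049, edgeR adjusted p = 8.54e-05). AIR1 was at 51.4, 50.3 and 49.6 CPM in rrp6Δ libraries, against 65.0, 65.9 and 59.8 CPM in RRP6 libraries, and fell by 0.32 (log2, SE 0.047, edgeR adjusted p = 7.74e-06), where library totals gave 0.28. Both pairs of groups were apart.

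The same split held in rrp4-G226D. AIR2 was at 42.3, 40.8 and 40.7 CPM in rrp4-G226D libraries, against 27.95, 31.4 and 34.3 CPM in RRP4 libraries, and rose by 0.40 (log2, SE 0.062, edgeR adjusted p = 1.04e-05). AIR1 was at 50.4, 50.4 and 45.7 CPM in rrp4-G226D libraries, against 54.9, 53.2 and 59.0 CPM in RRP4 libraries, and fell by 0.18 (log2, SE 0.054, edgeR adjusted p = 0.00562), where library totals gave 0.15. The AIR1 call was lost without RRP4 replicate 3 (edgeR adjusted p = 0.0536) and in the joint fit (edgeR adjusted p = 0.0862).

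Both AIR genes rose in rrp46-L191H and rrp40-W195R. AIR1 was at 30.8, 28.4 and 27.1 CPM in rrp46-L191H libraries, against 16.2, 22.0 and 21.0 CPM in RRP46 libraries, and rose 1.45-fold (log2 fold change 0.54, SE 0.101, edgeR adjusted p = 0.000816). AIR2 was at 38.7, 38.5 and 38.5 CPM there, against 31.4, 33.2 and 32.2 CPM in RRP46, and rose by 0.25 (log2, SE 0.049, edgeR adjusted p = 0.000519). In rrp40-W195R AIR2 rose by 0.39 (log2, SE 0.068, edgeR adjusted p = 0.000690). AIR1 rose there by 0.30 (log2, SE 0.107, edgeR adjusted p = 0.0386), at 34.7, 33.5 and 36.2 CPM, against 32.8, 27.2 and 23.4 CPM in RRP40. This AIR1 call was lost without RRP40 replicate 2 (adjusted p = 0.110) or 3 (0.119) and without rrp40-W195R replicate 1 (0.0864), 2 (0.0579) or 3 (0.102), all from edgeR.

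LRP1 and MPP6, the genes of the exosome-bound cofactors, changed in the same direction wherever both were called. With TMM scaling the same held for each of them paired with MTR4, PAP2 or AIR1. LRP1 was at 45.4, 48.7 and 46.7 CPM in rrp6Δ libraries, against 57.2, 68.9 and 58.6 CPM in RRP6 libraries, and fell by 0.38 (log2, SE 0.065, edgeR adjusted p = 0.000113), where library totals gave 0.23. MPP6 was at 12.3, 12.05 and 12.3 CPM in rrp6Δ libraries, against 16.1, 16.9 and 15.5 CPM in RRP6 libraries, and fell by 0.39 (log2, SE 0.069, edgeR adjusted p = 6.41e-05), where library totals gave 0.21. All rrp6Δ libraries lay below all RRP6 libraries for both genes.

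In rrp40-W195R libraries LRP1 was at 70.2, 72.2 and 69.0 CPM, against 54.5, 52.7 and 48.7 CPM in RRP40 libraries, and rose by 0.42 (log2, SE 0.059, edgeR adjusted p = 0.000167). MPP6 was at 13.3, 15.01 and 14.7 CPM there, against 10.8, 9.47 and 11.05 CPM in RRP40, and rose by 0.43 (log2, SE 0.094, edgeR adjusted p = 0.00294). The groups were apart for both genes. In rrp46-L191H LRP1 rose by 0.41 (SE 0.047, edgeR adjusted p = 8.05e-06) and MPP6 by 0.46 (SE 0.102, edgeR adjusted p = 0.00163), both on the log2 scale.

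In rrp4-G226D LRP1 fell by 0.19 (log2, SE 0.058, edgeR adjusted p = 0.00713), library totals gave 0.14, and the call was lost without RRP4 replicate 3 (adjusted p = 0.0518). MPP6 was not called there (log2 fold change -0.16, SE 0.091, and 0.17 with library totals), and became called without RRP4 replicate 2 (edgeR adjusted p = 0.00525). In rrp40-S87A MPP6 had a log2 fold change of 0.27 (SE 0.120, edgeR adjusted p = 0.152), and became called without rrp40-S87A replicate 2 (edgeR adjusted p = 0.0207). In rrp45-I15P LRP1 averaged 53.9 ± 4.12 CPM, against 60.3 ± 1.13 CPM in RRP45 (SD, n = 3 each), with no call (edgeR adjusted p = 0.398).

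**Figure D2:**
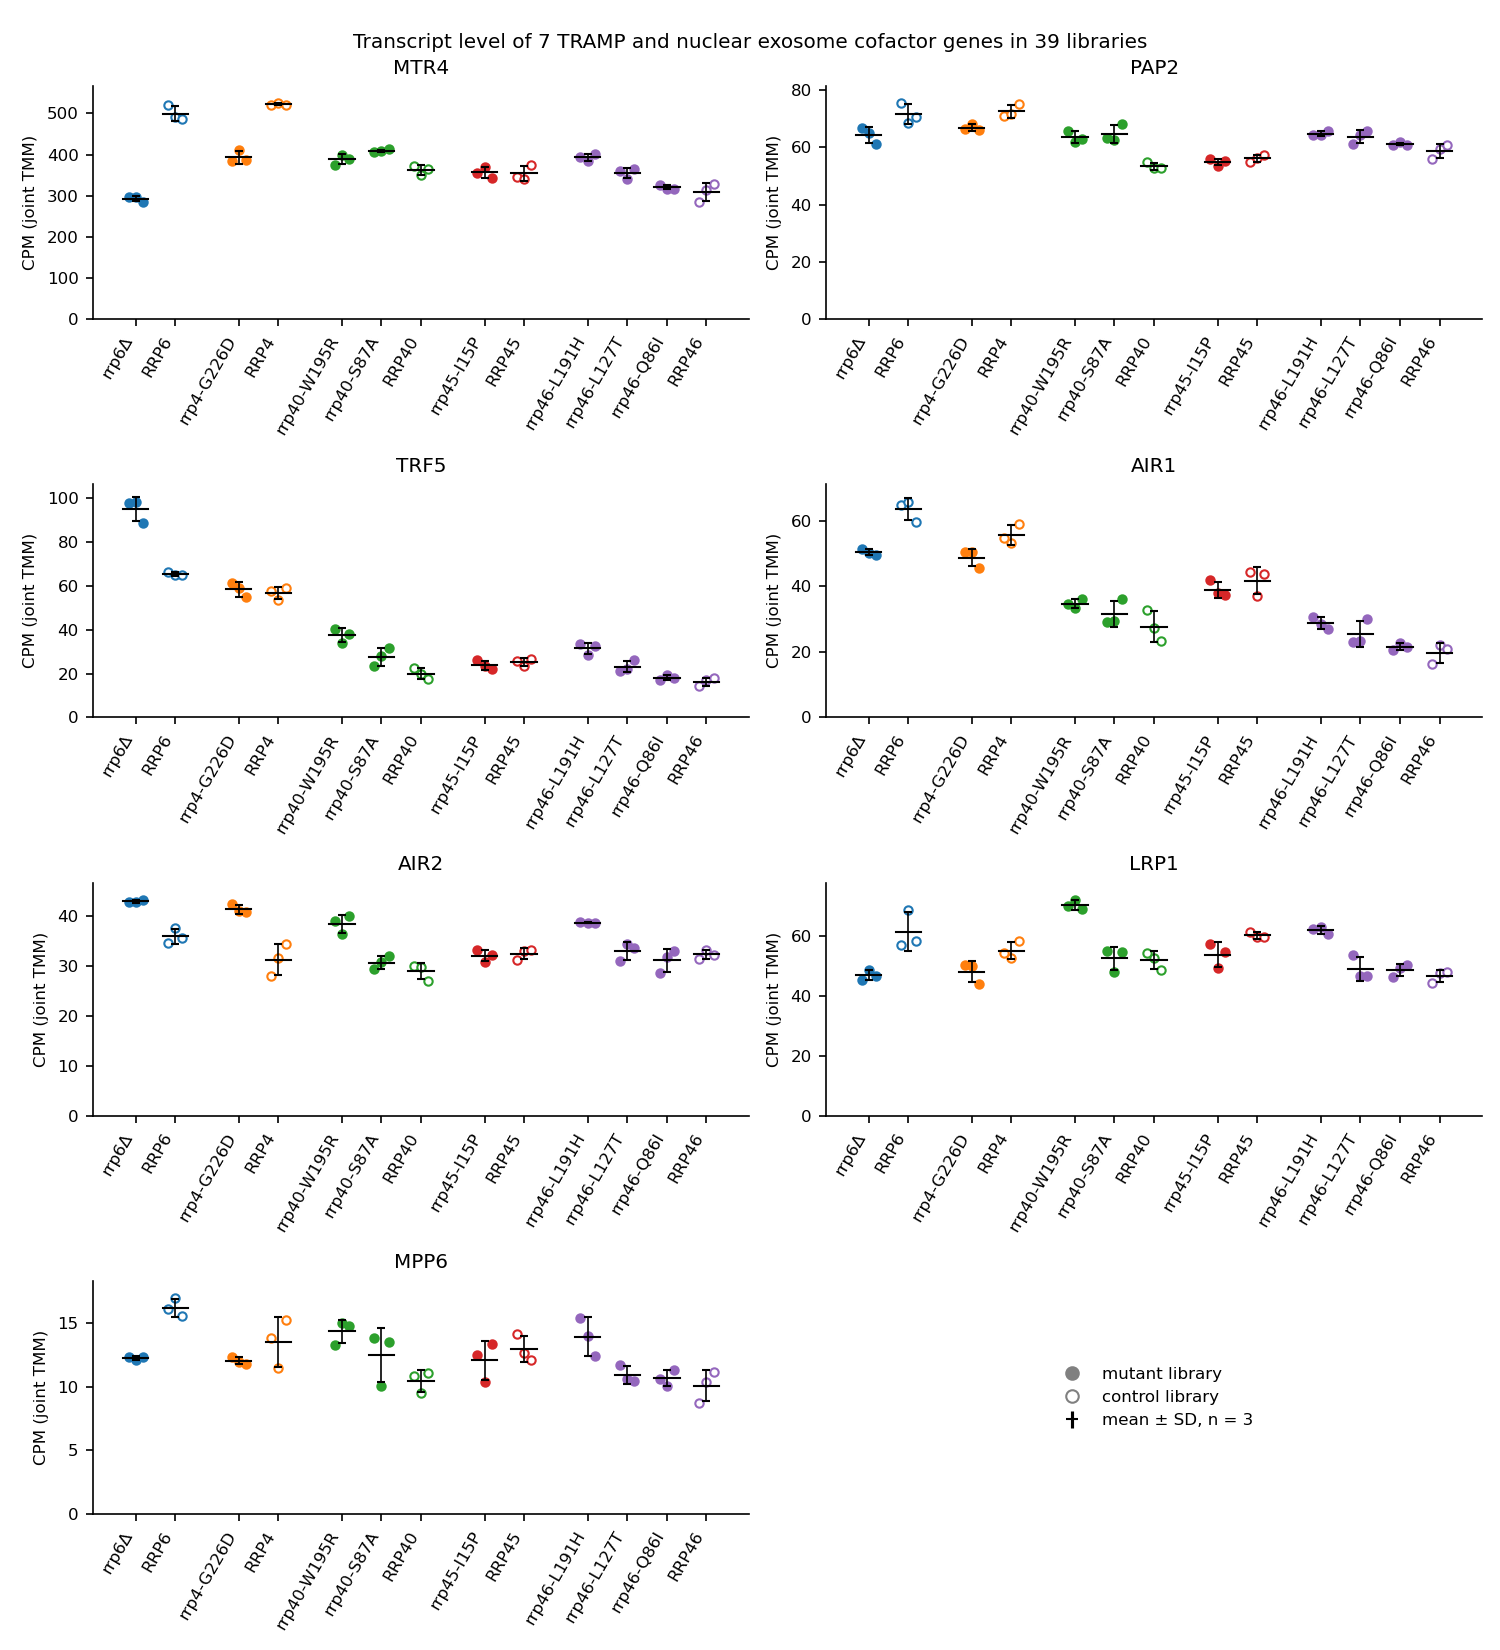
Level (vertical axis, CPM with joint TMM scaling, from 0) of each of the 7 genes in 39 libraries of 13 groups, ordered by family with mutants left of their control. Points are libraries, filled for mutants and open for controls, and lines with bars are means ± SD (n = 3); TRF5 and AIR1 differ between control groups by more than any mutant differs from its control.

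The control groups differed from each other as well, also between RRP4 and RRP46, which share mating type and markers. TRF5 averaged 65.5 ± 0.883 CPM in RRP6, 56.7 ± 2.70 in RRP4, 25.3 ± 1.68 in RRP45, 20.0 ± 2.62 in RRP40 and 16.4 ± 1.84 in RRP46 (SD, n = 3 each). This 3.998-fold range among controls was wider than the effect of any mutation on TRF5. AIR1 ranged 3.22-fold among the controls, MTR4 1.69-fold, MPP6 1.61-fold, PAP2 1.36-fold, LRP1 1.32-fold and AIR2 1.24-fold. Strain background, family and handling cannot be told apart in these differences, so no test was made between controls.

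Over all 13 groups the highest mean level of TRF5 (95.1 CPM in rrp6Δ) was 5.80 times its lowest (16.4 CPM in RRP46), a span wider than that of 96.6% of the 5264 features with a mean of at least 10 CPM, whose median span was 1.90-fold. AIR1 spanned 3.22-fold, wider than 85.2% of these features. MTR4 spanned 1.78-fold, MPP6 1.61-fold, LRP1 1.51-fold, AIR2 1.49-fold and PAP2 1.36-fold, all under the median. When the 13 groups were ranked by mean level, 8 of the 12 neighbouring pairs had overlapping libraries for TRF5, 8 for MTR4, 8 for PAP2, 7 for AIR1, 9 for AIR2, 10 for LRP1 and 10 for MPP6.

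Between genes, levels were compared per length, as CPM per kilobase of coding sequence. MTR4 ranked highest in 12 of the 13 groups, at 91.0 to 162 CPM per kilobase over the groups, and LRP1 ranked highest in the remaining group, rrp40-W195R, with 84.3 CPM per kilobase in RRP46 as its own lowest level. PAP2 lay between 30.4 and 41.3, AIR2 between 27.9 and 41.4, AIR1 between 18.2 and 58.7, MPP6 between 17.95 and 28.9 and TRF5 between 8.50 and 49.3 CPM per kilobase. TRF5 was the lowest of the 7 in 9 groups and MPP6 in the other 4.

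The balance within each paralog pair was then measured inside each library, where scaling cancels. The PAP2 to TRF5 ratio of counts was 0.676 in rrp6Δ (0.659 to 0.688 over libraries), against 1.09 in RRP6 (1.05 to 1.13). rrp6Δ was the group with a ratio under 1, and the ratio reached 3.59 in RRP46; these ratios are not corrected for gene length, and per kilobase too TRF5 lay above PAP2 in rrp6Δ and below it in the other 12 groups. The log2 ratio differed by -0.81 in rrp46-L191H, -0.69 in rrp6Δ, -0.66 in rrp40-W195R, -0.38 in rrp46-L127T and -0.16 in rrp4-G226D from the control, each with libraries that did not overlap. These 5 differences had an exact two-sided permutation p = 0.1, the smallest that 3 against 3 libraries allow, and 0.178 after Benjamini-Hochberg adjustment over 16 ratio tests. Of all features 62.4% were called in rrp46-L191H, 83.5% in rrp6Δ, 52.5% in rrp40-W195R, 5.24% in rrp46-L127T and 71.9% in rrp4-G226D. How many ratios of other gene pairs separate in this way was not counted. The PAP2 to TRF5 ratios overlapped in rrp40-S87A (difference -0.19, exact p = 0.3), rrp46-Q86I (-0.10, exact p = 0.3) and rrp45-I15P (0.05, exact p = 0.7).

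The AIR1 to AIR2 ratio moved in both directions. It was 1.18 in rrp6Δ against 1.77 in RRP6, and 1.18 in rrp4-G226D against 1.79 in RRP4, log2 differences of -0.59 and -0.60. In the rrp46 family it was 0.745 in rrp46-L191H and 0.770 in rrp46-L127T, against 0.606 in RRP46, log2 differences of 0.30 and 0.34. The libraries of these 4 pairs did not overlap (exact permutation p = 0.1 each, adjusted 0.178), and here too ratios of other genes were not counted. In rrp46-Q86I, rrp40-W195R, rrp40-S87A and rrp45-I15P the libraries overlapped, with log2 differences of 0.20, -0.07, 0.11 and -0.08.

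**Figure D3:**
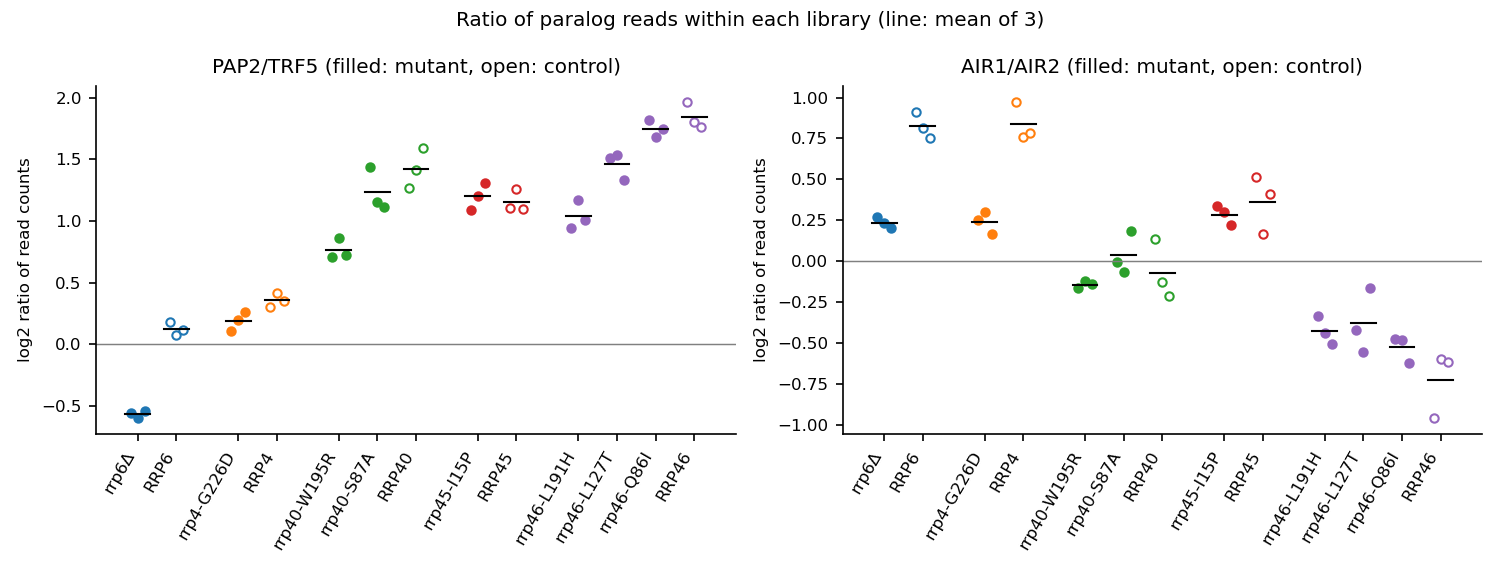
Log2 ratio of read counts (vertical axis) of PAP2 to TRF5 and of AIR1 to AIR2 in each library of 13 groups, mutants (filled) left of their control (open), with the mean of 3 as a line. The rrp6Δ libraries lie below 0 for PAP2 to TRF5, and the rrp6Δ and rrp4-G226D libraries lie below their controls for both ratios.

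Comparing alleles with each other, without the control, 3 of the 7 genes were higher in rrp40-W195R than in rrp40-S87A, where 38.8% of all features were called and 18.6% were called higher: TRF5 by 0.42 (SE 0.105, edgeR adjusted p = 0.00895), AIR2 by 0.31 (SE 0.069, adjusted p = 0.00405) and LRP1 by 0.40 (SE 0.066, adjusted p = 0.000718) on the log2 scale. With library totals all 7 were called higher, MTR4 and PAP2 with a change of sign, beside 4750 features called in all, 90.7% of them higher. With TMM scaling AIR1 became called without rrp40-S87A replicate 3 (edgeR adjusted p = 0.0475).

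Among the rrp46 alleles, 6 genes were higher in rrp46-L191H than in rrp46-Q86I, all except PAP2, where 64.4% of all features were called and 32.5% were called higher. TRF5 was higher there by 0.79 (log2, SE 0.066, edgeR adjusted p = 5.48e-10) and MTR4 by 0.30 (log2, SE 0.042, edgeR adjusted p = 1.93e-06). With library totals all 7 genes were called higher in rrp46-L191H against either allele: PAP2 then differed by 0.29 from rrp46-Q86I (edgeR adjusted p = 7.53e-06), and PAP2 by 0.22 and AIR1 by 0.36 from rrp46-L127T (edgeR adjusted p = 0.00291 and 0.00706). Beside them 5150 features were called with library totals against rrp46-Q86I, 78.6% of them higher. The same scaling called 4329 features against rrp46-L127T, 82.4% of them higher. Against rrp46-L127T, 5 genes were higher in rrp46-L191H, where 51.5% of all features were called and 25.6% were called higher: MTR4 by 0.14, TRF5 by 0.43, AIR2 by 0.22, LRP1 by 0.34 and MPP6 by 0.36 on the log2 scale (edgeR adjusted p from 0.000525 for LRP1 to 0.0176 for MTR4). The MTR4 call was lost without rrp46-L127T replicate 2 (adjusted p = 0.0942) and without rrp46-L191H replicate 1 (0.0659) or 3 (0.0722), and AIR1 became called without rrp46-L127T replicate 3 (0.00463), all from edgeR. Between rrp46-L127T and rrp46-Q86I edgeR called 0 of the 7 beside 0.604% of all features, with 3 genes at an unadjusted p under 0.05. DESeq2 called 1 gene, TRF5, whose log2 fold change was 0.36 (SE 0.083, edgeR adjusted p = 0.0751), and which edgeR called without rrp46-L127T replicate 1 (adjusted p = 0.00416).

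The effect of each missense allele was also set against that of losing Rrp6, by the difference of the log2 fold changes over 12 libraries. MTR4 stood apart from its rrp6Δ effect in all 7 contrasts, by 1.10 in rrp46-L191H, 0.95 in rrp46-L127T, 0.93 in rrp40-S87A, 0.83 in rrp40-W195R, 0.81 in rrp46-Q86I, 0.76 in rrp45-I15P and 0.34 in rrp4-G226D (edgeR adjusted p at most 7.47e-05). All 7 differences were positive under library totals, but the rrp4-G226D and rrp45-I15P values of 0.09 and 0.13 then lost their call. The 7 contrasts share the 6 rrp6Δ and RRP6 libraries. With TMM scaling, 6 of the 7 genes differed from their rrp6Δ effect in rrp40-W195R, all higher (61.4% of all features differed), and 6 in rrp46-L191H, all higher (71.3%). With library totals these were 4 higher in rrp40-W195R, and 4 higher and 2 lower in rrp46-L191H. In rrp46-Q86I 5 were higher and 2 lower (75.5%), in rrp46-L127T 5 higher and 1 lower (73%), in rrp40-S87A 5 higher and 1 lower (71.6%) and in rrp45-I15P 4 higher and 2 lower (73.9%). Library totals gave 1 higher and 3 lower in rrp46-Q86I, 1 and 3 in rrp46-L127T, 1 and 2 in rrp40-S87A and 0 and 6 in rrp45-I15P, so that the split in these 4 alleles rests on the scaling. AIR2 was called lower in these 4 alleles under both scalings. Its differences were -0.32, -0.24, -0.19 and -0.30 with TMM scaling, in the order just given, and -0.98, -0.87, -0.72 and -0.92 with library totals. In rrp4-G226D 1 of the 7 genes was higher and 1 lower (48.6%), and 0 and 2 with library totals. Of all features that differed, 49.3% to 56.0% were higher with TMM scaling over the 7 contrasts, and 14.7% to 29.8% with library totals.

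TRF5 did not follow the direction of MTR4 in all of these contrasts. Its difference from the rrp6Δ effect was -0.51 in rrp4-G226D, -0.64 in rrp45-I15P and -0.40 in rrp46-Q86I, and 0.33 in rrp40-W195R and 0.38 in rrp46-L191H, all called by edgeR with TMM scaling. Under library totals the rrp40-W195R value was 0.07 with no call and the rrp46-L191H value changed sign to -0.0497 with no call. The TRF5 differences in rrp40-S87A and rrp46-L127T, -0.09 and -0.04 and not called with TMM scaling, were -0.62 and -0.68 with library totals, both called (edgeR adjusted p = 0.000916 and 2.64e-05).

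Other genes of nuclear RNA decay were counted from a list of 25: the exosome subunits, the Nrd1 termination complex, the Mtr4 adaptors NOP53 and UTP18, the nuclear poly(A) genes PAP1 and NAB2, further 3′ exonucleases and the cytoplasmic Ski genes. Of these 24 were tested, and MTR3 was listed at 0 in every library, as were 255 of the 6007 protein-coding features. In rrp6Δ 3 of the 24 rose and 18 fell, beside 42.6% and 40.9% of all features, and 17 rose and 3 fell with library totals. In rrp4-G226D 5 rose and 14 fell, beside 36.1% and 35.9%, and 15 rose and 1 fell with library totals. In rrp40-W195R 11 rose and 2 fell, beside 26% and 26.5%, and 24 rose and 0 fell with library totals. In rrp46-L191H 16 rose and 2 fell, beside 31.4% and 31%, and 21 rose and 0 fell with library totals. In rrp40-S87A 4 rose and 0 fell, beside 7.69% and 7.8%, and in rrp46-L127T 4 rose and 1 fell, beside 2.63% and 2.62%, where library totals gave 6 and 0, and 3 and 1. Of the 24, 1 fell and 0 rose in rrp46-Q86I, while edgeR and DESeq2 called 0 in rrp45-I15P, with 0 at an unadjusted p under 0.05.

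These counts include the gene that each family carries on its plasmid. The 1 gene that fell in rrp46-Q86I was RRP46 itself, at 99.5 ± 13.6 CPM in rrp46-Q86I, against 561 ± 33.1 CPM in RRP46 (SD, n = 3 each), a log2 fold change of -2.51 (edgeR adjusted p = 3.98e-06). RRP46 was also the gene that fell in rrp46-L127T, by 0.25 (log2, edgeR adjusted p = 0.0466), and it rose by 0.73 in rrp46-L191H (log2, edgeR adjusted p = 1.56e-07). RRP40 rose by 0.48 in rrp40-W195R (log2, edgeR adjusted p = 0.00167), and RRP4 by 0.63 in rrp4-G226D (log2, edgeR adjusted p = 3.40e-11). RRP40 was not called in rrp40-S87A (log2 fold change -0.07) nor RRP45 in rrp45-I15P (-0.0027), and RRP6 is absent from the rrp6Δ strain.

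Among the partner genes REX4, a 3′ exonuclease gene, and UTP18, a ribosome biogenesis adaptor that binds Mtr4, each rose in 4 comparisons and fell in 2, rrp6Δ and rrp4-G226D. In rrp6Δ REX4 fell by 0.62 and UTP18 by 0.34 on the log2 scale, where library totals gave -0.0178 and 0.26, and in rrp4-G226D they fell by 0.40 and 0.23, where library totals gave -0.0641 and 0.0994. In rrp46-L191H they rose by 0.89 and 0.90. RRP4, a cap subunit gene, rose in 5 comparisons, its own plasmid family included, of which library totals lost the call in rrp46-L127T (edgeR adjusted p = 0.0865), and fell in 1, rrp6Δ, where library totals gave 0.42. RRP6 rose in 3 and fell in 2, which are rrp6Δ itself and rrp4-G226D, where library totals gave 0.16. In rrp6Δ the largest rise on the list was that of NRD1, an RNA-binding termination factor, by 0.68 (SE 0.045, edgeR adjusted p = 6.89e-10), and the largest fall after RRP6 itself was that of RRP45, by 0.80 (SE 0.048, edgeR adjusted p = 1.83e-10), both on the log2 scale. With library totals NRD1 rose by 1.28 and RRP45 fell by 0.19 (edgeR adjusted p = 0.00276).

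The products of the 57 ribosome biogenesis genes act on the rRNA precursors that TRAMP helps to process, or in ribosome assembly. In rrp6Δ the list gave a median log2 fold change of -0.60, with 0 called higher and 54 lower. In rrp4-G226D the median was -0.32, with 0 higher and 53 lower. With library totals the median was 0.0059 in rrp6Δ, with 19 higher and 16 lower, and 0.012 in rrp4-G226D, with 14 higher and 7 lower. The median was 0.39 in rrp46-L191H (53 higher, 0 lower) and 0.17 in rrp40-W195R (34 higher, 5 lower), where library totals gave 55 and 0, and 51 and 1. It was 0.16 in rrp40-S87A (29 higher, 2 lower) and 0.17 in rrp46-L127T (12 higher, 0 lower), where library totals gave 40 and 1, and 8 and 0. It was 0.07 in rrp46-Q86I and -0.05 in rrp45-I15P, with 0 called by edgeR in both, 10 at an unadjusted p under 0.05 in each, and DESeq2 calls of 3 in the rrp46-Q86I strain and 0 in the rrp45-I15P strain. The shares of all features called in each direction are those given for the partner genes. Whether the values of the 7 genes move with this list was not tested.

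**Figure D4:**
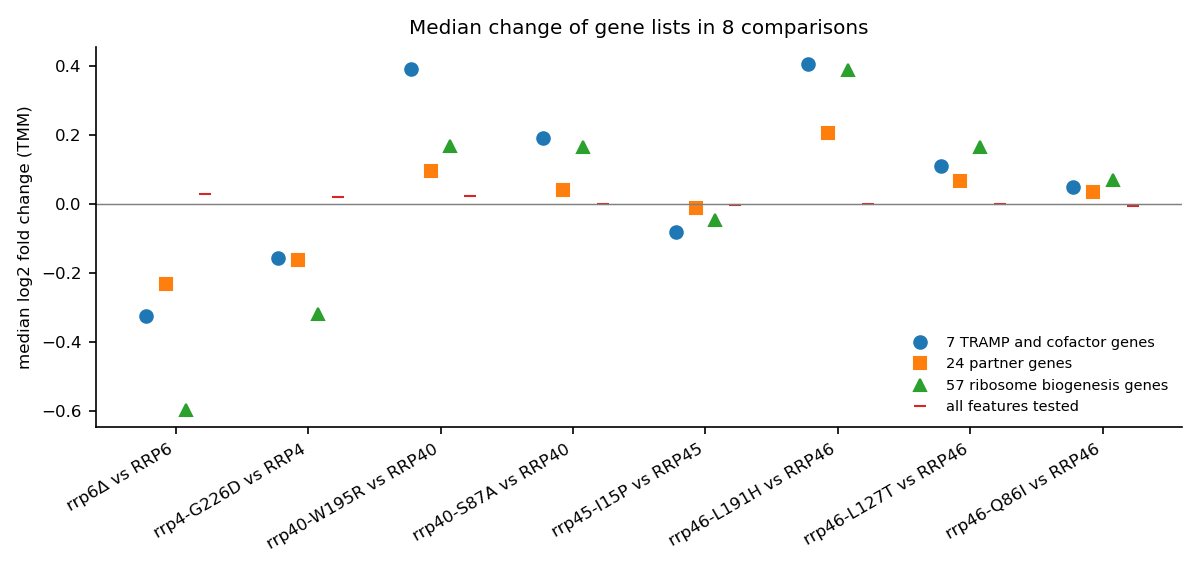
Median log2 fold change (vertical axis, TMM scaling) of the 7 genes, the 24 tested partner genes, the 57 ribosome biogenesis genes and all features tested, in the 8 mutant-control comparisons. The medians of the 3 lists lie below 0 in rrp6Δ, rrp4-G226D and rrp45-I15P and above 0 in the other 5; library totals turn the medians in rrp6Δ and rrp4-G226D, and that of the partner genes in rrp46-Q86I, to the other sign.

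Across the 13 group means of log2 CPM, each of the 7 genes had a protein-coding gene whose pattern was most like it among 4964 candidates with a mean of at least 10 CPM. By Pearson's r these were MRT4 for MTR4 (0.98), ANP1 for PAP2 (0.97), SAP185 for TRF5 (0.99), PZF1 for AIR1 (0.99), DOC1 for AIR2 (0.96), TMA16 for LRP1 (0.91) and NOB1 for MPP6 (0.94). An r over 0.9 was reached by 170 candidates for TRF5, 134 for AIR1, 63 for MTR4, 35 for AIR2, 10 for PAP2, 8 for MPP6 and 1 for LRP1. Among the 7 genes themselves, TRF5 and AIR1 were the most alike (r = 0.86) and MTR4 and AIR2 the least (r = -0.09). The points share strain families and plasmid controls, and these values are descriptions.

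The authors' deposited tables of the 8 mutant-control comparisons held a fold change and adjusted p for all 7 genes, 56 values in all. In the authors' deposited tables and in the edgeR fits 29 values were called in both, all with the same sign, and 0 were called by edgeR alone. The 2 values called only in the authors' deposited tables were MTR4 in rrp46-L127T (log2 fold change 0.18, adjusted p = 0.00227) and AIR1 in rrp46-L127T (log2 fold change 0.29, adjusted p = 0.0120). For these edgeR gave log2 fold changes of 0.19 and 0.36, with adjusted p-values of 0.0787 and 0.144. Some deposited fold changes were much nearer to no change than those of edgeR, as for TRF5 in rrp46-Q86I (0.029 against 0.14), so the sizes are not one measure.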

How the data were processed

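The authors deposited raw counts of reads per feature for each library and tables of their own comparisons with log2 fold changes, p-values and, as scores with no fixed range, standard errors and test statistics. Per the submitters' processing notes, STAR, featureCounts 1.22.2, StringTie 2.1.7, DESeq2 1.38.1 and build R64 were used, in roles and with a strand setting not given in the sources used here. Per the labels' protocols, total RNA was depleted of rRNA and libraries were made with the Zymo-Seq RiboFree kit. No annotated gene overlaps any of the 7 genes in R64.

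Counts were tested in R 4.3.3 with edgeR 4.0.16, on the 6 libraries of each comparison, after filterByExpr and TMM scaling, by its two-sided quasi-likelihood test in robust mode, over all features. Differences between effects used 12 libraries. Paralog ratios of counts were compared by exact permutation tests. Alternatives were library totals, RLE factors, DESeq2 1.42.0, no filter, a joint fit of 39 libraries, a replicate block and leaving out each library. The 7 genes were named in every group; partner genes were named when called in at least 5 comparisons or with the largest rise or fall in rrp6Δ. The 7 genes, the lists and the tests were chosen with earlier results of these data known.

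Same-numbered libraries deviated together in every pair (r of at least 0.1) only for rrp46-L191H and rrp46-Q86I, with r from 0.12 to 0.26, where the block changed no call. Libraries of the same group differed beyond sampling noise (lowest chi-square per degree of freedom 4.52), so none was counted as a copy. Data were simulated for rrp40-W195R and RRP40 with 7461 genes. Of the changes put in, 63 of 92 of 0.5 (log2) and 99 of 107 of 1 were recovered, with 16 false calls. These changes went up or down at random and the other genes stayed unchanged, while 52.5% of features were called in the real comparison. The simulation therefore cannot check the TMM scaling.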

Additional observations from a re-analysis of the deposited data

Results flagged for a closer look

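The differences between a missense allele's effect and the rrp6Δ effect are given as differences of log2 fold changes with TMM scaling, each called by edgeR over 12 libraries. In 11 cases both effects were called with opposite signs. In rrp40-W195R these were PAP2 (0.37), AIR1 (0.62), LRP1 (0.79) and MPP6 (0.82), which rose there and fell in rrp6Δ. In rrp40-S87A they were MTR4 (0.93) and PAP2 (0.42). In rrp46-L191H they were MTR4 (1.10), PAP2 (0.28), AIR1 (0.86), LRP1 (0.78) and MPP6 (0.85). Under library totals the effects of MTR4 in rrp40-S87A and rrp46-L191H stayed opposite in sign to that in rrp6Δ, and the other 9 were positive in both strains.

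MTR4 also differed from its rrp6Δ effect in rrp40-W195R (0.83), rrp45-I15P (0.76), rrp46-L127T (0.95), rrp46-Q86I (0.81) and rrp4-G226D (0.34), where its own effect was smaller, absent from the calls or also a fall. The TRF5 effect was lower than in rrp6Δ in rrp4-G226D (-0.51), rrp45-I15P (-0.64) and rrp46-Q86I (-0.40), where TRF5 itself was not called, and higher in rrp40-W195R (0.33) and rrp46-L191H (0.38), where library totals lost the call of the difference. The causes were not tested.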

How the results depend on the processing

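RLE factors changed no call and no direction among the 7 genes in any comparison, and leaving out the filter lost 2 calls, the differences from the rrp6Δ effect of AIR2 in rrp40-S87A and of LRP1 in rrp45-I15P. Library totals gave log2 fold changes of the other sign for PAP2 (0.46), AIR1 (0.28), LRP1 (0.23) and MPP6 (0.21) in rrp6Δ, for PAP2 (0.22), AIR1 (0.15), LRP1 (0.14) and MPP6 (0.17) in rrp4-G226D, for MTR4 in rrp45-I15P (-0.0261), for AIR2 in rrp46-L127T (-0.00034), and for MTR4 (0.17) and PAP2 (0.22) between rrp40-W195R and rrp40-S87A. Of the 39 called differences from the rrp6Δ effect, 15 changed sign: PAP2 in rrp40-S87A (-0.11), rrp46-L191H (-0.15), rrp46-L127T (-0.37) and rrp46-Q86I (-0.45), AIR1 in rrp40-S87A (-0.0293), rrp45-I15P (-0.41) and rrp46-Q86I (-0.20), LRP1 in rrp40-S87A (-0.14), rrp45-I15P (-0.42), rrp46-L127T (-0.19) and rrp46-Q86I (-0.21), MPP6 in rrp45-I15P (-0.34), rrp46-L127T (-0.14) and rrp46-Q86I (-0.18), and TRF5 in rrp46-L191H (-0.0497). Of the 10 differences not called, 7 changed sign. The number of called genes became 7 in place of 3 between rrp40-W195R and rrp40-S87A, 3 in place of 6 for the difference of rrp40-S87A from rrp6Δ and 4 in place of 7 for that of rrp46-Q86I.

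DESeq2 and the joint fit each called 3 genes in rrp46-L127T in place of 1, and called 1 and 2 genes between rrp46-L127T and rrp46-Q86I in place of 0. The joint fit also called 4 genes in rrp4-G226D in place of 5. It called 5 in place of 6 for the differences of rrp40-S87A and of rrp45-I15P from rrp6Δ. Leaving out each library gave 2 to 6 called genes in rrp4-G226D, 1 to 3 in rrp40-S87A, 0 to 1 in rrp46-L127T, 0 to 1 between rrp46-L127T and rrp46-Q86I and 3 to 6 for the difference of rrp45-I15P from rrp6Δ. Uncalled values that changed sign then ranged, in log2 fold change, from -0.0150 to 0.0930 for LRP1 in rrp40-S87A, from -0.0177 to 0.0549 for MTR4, -0.0452 to 0.0089 for AIR2 and -0.184 to 0.000103 for MPP6 in rrp45-I15P, from -0.0065 to 0.0631 for AIR2 and -0.0095 to 0.0951 for LRP1 in rrp46-L127T, and from -0.0074 to 0.0823 for MTR4 and -0.0172 to 0.144 for MPP6 in rrp46-Q86I. Between alleles PAP2 ranged from -0.0081 to 0.0392 (rrp46-L191H and rrp46-L127T), and LRP1 from -0.0660 to 0.0383 and MPP6 from -0.0243 to 0.0692 (rrp46-L127T and rrp46-Q86I). TRF5 differences from rrp6Δ ranged from -0.192 to 0.0367 in rrp40-S87A and -0.141 to 0.0323 in rrp46-L127T. The log2 ratio difference ranged from -0.0103 to 0.102 for PAP2 to TRF5 in rrp45-I15P and from -0.145 to 0.0278 for AIR1 to AIR2 in rrp40-W195R.

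With the replicate number as a block, the calls of PAP2 in rrp4-G226D (-0.11, edgeR adjusted p = 0.0525) and of TRF5 in rrp40-S87A (0.47, adjusted p = 0.127) were lost, and the difference of AIR2 in rrp40-S87A from rrp6Δ was no longer called; no other call among the reported values changed. Outside rrp46-L191H and rrp46-Q86I not every same-numbered pair of libraries reached an r of 0.1. Whether same-numbered libraries shared a batch was not tested. MPP6 has the fewest counts of the 7 genes in every library, and so the largest counting error.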

Other observations

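A stable unannotated transcript, SUT633, is listed directly before TRF5 in the count files, and it was singled out after its values were seen. It was at 11.9 ± 0.636 CPM in rrp6Δ, against 25.7 ± 2.004 CPM in RRP6, at 17.2 ± 1.26 CPM in rrp4-G226D, against 33.8 ± 3.01 CPM in RRP4, and at 8.74 ± 0.262 CPM in rrp46-L191H, against 17.1 ± 2.30 CPM in RRP46 (SD, n = 3 each). It fell by 1.10, 0.96 and 0.96 on the log2 scale in these strains (edgeR adjusted p = 4.00e-10, 3.43e-10 and 3.18e-06), and was lower under library totals too. In rrp40-W195R it fell by 0.42 (edgeR adjusted p = 0.00331), with -0.09 and no call under library totals. It was not called in the other 4 comparisons. TRF5 rose in rrp6Δ, rrp46-L191H and rrp40-W195R and was not called in rrp4-G226D. The position and strand of SUT633 are not given in the files used here, and no relation between the transcripts was tested.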
